A study of Mus musculus with 9 samples.

Results

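Kinesins are motor proteins that hydrolyse ATP to move along microtubules or to take their ends apart. The genes described here are the rows of a mouse count table whose symbol begins with Kif followed by a digit or the letter c, which gave 46 of the table's 46078 genes. Of these, 12 were grouped by their known role as mitotic kinesins (Kif4, Kif11, Kif14, Kif15, Kif18a, Kif18b, Kif20a, Kif20b, Kif22, Kif23, Kif2c and Kifc1), and the other 34 were all remaining rows with such a symbol. The symbol rule also took in Kif1bp, which encodes a protein that binds kinesins and is not a motor, the antisense transcript Kif16bos, and the pseudogenes Kif4-ps, Kif22-ps and Kifc5c-ps.

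Transcript 3′ ends were sequenced in 6 T cell lymphomas induced by MYCN and taken from the thymus, and in 3 control preparations of CD4+ T cells from the spleen, all from the C57BL/6J strain. Libraries carry the numbers of their labels: lymphomas 34, 53, 56, 70, 72 and 86, and CD4 1, 2 and 3. The labels used here do not name the promoter or Cre that drives MYCN, the age of the animals, or whether libraries came from separate animals, so p-values measure the spread between these libraries, part of which may be technical. Tissue and group coincide and cannot be told apart.

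In dividing cells, kinesins build the bipolar spindle, move and align chromosomes, and organise the central spindle during cytokinesis, and the genes of many mitotic kinesins are transcribed mainly in G2 and mitosis. In resting lymphocytes, kinesins instead carry vesicles, mitochondria and other cargo toward microtubule ends. In cells that bear cilia, kinesin-2 also drives transport within them. A short promoter element, the cell cycle genes homology region (CHR), is bound by the DREAM and MuvB complexes and is known for holding late cell cycle genes off in resting cells, often beside NF-Y boxes.

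Because the mitotic kinesins moved together in the comparison below, their promoters were examined first. RefSeq promoter windows (build GRCm38.p6, 250 bases before to 50 bases after a start site) were at hand for 11 of the 12 mitotic kinesins and for 22 of the 29 other protein-coding kinesin genes, in 26 windows. The CHR core, TTTGAA on either strand, was present in 10 of the 11 mitotic windows (90.9%), in 4 of the 26 windows of other kinesins (15.4%) and in 17.9% of all 32851 promoter windows. Its first base lay within 25 bases of the start site in 8 of the 11 mitotic windows (72.7%), in 1 of 26 windows of other kinesins (that of Kif26b) and in 2.65% of all windows, a distance chosen after the positions had been seen. These 8 sites follow, 5′ to 3′ on the gene's strand with the CHR core in capitals, so that TTCAAA is the core read from the opposite strand.
Kif11: gtctccatttTTCAAAattgaggcgc
Kif15: gggcgccaaaTTCAAAtctgcggcca
Kif22: gccccggtaaTTCAAAagagagaagc
Kif18b: gaccggctagTTTGAAcgcgccgcgc
Kif20b: gccgccattgTTTGAAtttgaaaacc
Kif23: gattggcctgTTTGAAatgcgccggg
Kif4: ctgggatcaaTTTGAAacttggcggt
Kifc1: gaggttgaaaTTCAAAagtggcgggt

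These stretches lie at chr19:37376353-37376378 (plus strand) for Kif11, chr9:122951052-122951077 (plus) for Kif15, chr7:127042422-127042447 (minus) for Kif22, chr11:102925106-102925131 (minus) for Kif18b, chr19:34922355-34922380 (plus) for Kif20b, chr9:61946782-61946807 (minus) for Kif23, chrX:100626074-100626099 (plus) for Kif4 and chr17:33890617-33890642 (minus) for Kifc1. The core began 19 bases before the start site in Kif11 and Kif15 and 17 bases before it in Kif22. It began at base 2 after the start in Kifc1, at base 3 in Kif23, base 4 in Kif18b, base 8 in Kif20b and base 20 in Kif4. The Kif20b site holds a second, adjoining copy of the core, which begins at base 14 and is left in lower case above. Kif14 and Kif2c had the core farther from the start site, and Kif18a had none in its window, which says only that these letters are not there. The RefSeq start sites of Kif14, Kif2c and Kif4 lie 1505, 3867 and 328 bases downstream of the gene's 5′ end in GENCODE M21. Among the 8 mitotic windows within 300 bases of that end the core was in 7 (87.5%), against 2 of 23 such windows of other kinesins.

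For 3 of these 8 genes the core close to the start site lies upstream of it, and the 150 bases before the start site show it together with any NF-Y box. Capitals mark the CHR core (TTTGAA or TTCAAA) and the NF-Y box (CCAAT or, from the opposite strand, ATTGG). The stretches are Kif11 at chr19:37376232-37376381 (plus strand), Kif22 at chr7:127042421-127042570 (minus) and Kif15 at chr9:122950931-122951080 (plus), all in GRCm38.p6.
Kif11: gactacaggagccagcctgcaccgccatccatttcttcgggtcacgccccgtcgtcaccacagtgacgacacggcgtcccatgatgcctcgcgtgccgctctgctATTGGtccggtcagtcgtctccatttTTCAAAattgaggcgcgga
Kif22: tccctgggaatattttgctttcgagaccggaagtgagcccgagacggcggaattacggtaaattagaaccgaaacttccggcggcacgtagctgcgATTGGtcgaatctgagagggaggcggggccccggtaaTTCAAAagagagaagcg
Kif15: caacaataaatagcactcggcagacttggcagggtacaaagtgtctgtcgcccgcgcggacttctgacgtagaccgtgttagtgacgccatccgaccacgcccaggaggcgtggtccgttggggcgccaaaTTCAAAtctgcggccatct

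Kif11 and Kif22 share the order of NF-Y box and then CHR core, and Kif15 has the core alone in this stretch. An NF-Y box was in 7 of the 11 mitotic windows (63.6%), 10 of 26 windows of other kinesins (38.5%) and 37.4% of all windows, and both motifs together were in 7 of 11, 3 of 26 and 6.95%. The E-box CACGTG, which MYC family proteins bind, was in 0 of the 11 mitotic windows, 1 of 26 windows of other kinesins and 7.15% of all windows. The E2F core GCGGGAA was in 0 of 11, 2 of 26 and 4.6%. All 4 motifs were searched on both strands and counted separately, and a match is a description of sequence and not a measured binding site.

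**Figure D1:**
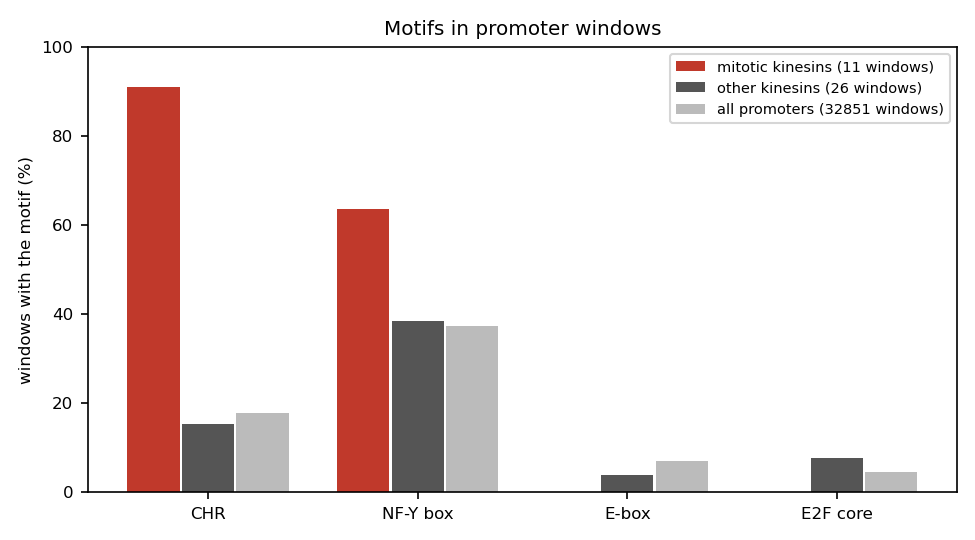
Share of promoter windows (in %, 300 bases each) that hold each of 4 motifs on either strand, for mitotic kinesins, other kinesins and all RefSeq promoters. The CHR bar of the mitotic kinesins stands at 90.9%, against 15.4% for the other kinesins and 17.9% for all promoters. Start sites of the Kif14, Kif2c and Kif4 windows lie over 300 bases downstream of the gene's 5′ end, as do some of other kinesins.

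Read depth and cell content set the frame for the expression values. Reads counted in genes ran from 11170704 to 15769679 per lymphoma and from 8099960 to 10808828 per CD4 library, and 3 counts, the limit that a count of 0 allows, were between 0.19 and 0.37 CPM of gene counts (CPM is the count scaled by library size). Of 11 T cell markers 1 was higher (Zap70), 2 were lower (Cd2 and Cd4) and 8 were not called, with summed levels of 1552 to 2350 CPM in lymphomas and 2486 to 2661 CPM in CD4 libraries. Cd3d and Cd3e were present in both groups (Cd3d had means of 453 ± 44.3 CPM over 6 lymphomas and 432 ± 19.1 CPM over 3 CD4 libraries, each ± SD), while Cd4 was at 35.3 ± 29.2 and 240.0 ± 35.5 CPM. Cd8a stood at 29.4 CPM in lymphoma 53, at most 1.53 CPM in the other lymphomas and 25.6 to 31.8 CPM in CD4 libraries, and Cd8b1 at 47.6, at most 0.735 and 35.9 to 44.9 CPM. B cell markers were lower in lymphoma for 10 of 10 genes, with a summed level of 6.85 to 13.4 CPM in lymphomas and 1254 to 1514 CPM in CD4 libraries and no marker at 0 in a whole group. The summed levels of the other lists were 64.1 to 1199 CPM in lymphoma and 680 to 952 CPM in CD4 for myeloid markers (6 of 10 tested genes lower), 148 to 233 and 45.6 to 55.1 CPM for erythroid markers (2 of 7 higher, 1 lower), and 87.4 to 158 and 200.4 to 216 CPM for stromal and thymic epithelial markers (2 of 5 higher, 1 lower, with Dcn, Krt5, Krt8 and Foxn1 at 0 in CD4). Most of the erythroid sum was Tfrc, at 134 to 219 CPM in lymphoma and 35.6 to 49.1 CPM in CD4. Hemgn was the other erythroid marker called higher, and Gata1 was lower. Most of the stromal sum in CD4 was Pecam1, at 186 to 199 CPM, against 59.3 to 81.3 CPM in lymphoma. The stromal markers called higher were Dcn and Epcam. Neuronal markers (2 of 4 tested genes higher) summed to 17.1 to 72.9 and 4.32 to 7.73 CPM. Of these markers, Gap43 and Dcx were at 0 in both groups, Snap25 and Nefl at 0 in lymphoma only and Elavl4 at 0 in CD4 only. Ciliated cell markers (0 of 4 changed) summed to 17.1 to 24.1 and 17.6 to 31.7 CPM. The part of these cell types in the kinesin differences was not tested, and in bulk RNA fewer cells of a type and less RNA per cell cannot be told apart.

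All 12 mitotic kinesins rose in lymphoma. Their fitted changes ran from 2.8-fold for Kifc1 to 24.5-fold for Kif2c, and the median log2 fold change was 3.32, against 0.04 over the 15401 genes tested. Higher calls at a Benjamini-Hochberg adjusted p under 0.05 in edgeR's quasi-likelihood test made up 24.7% of all tested genes, and a higher call with a log2 fold change of at least 3 made up 4.94%. Of the 12 mitotic kinesins, 8 met the second condition. In 11 of the 12 every lymphoma lay above every CD4 library, as in 22.6% of tested genes. All 12 passed the filter on low counts.

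**Figure D2:**
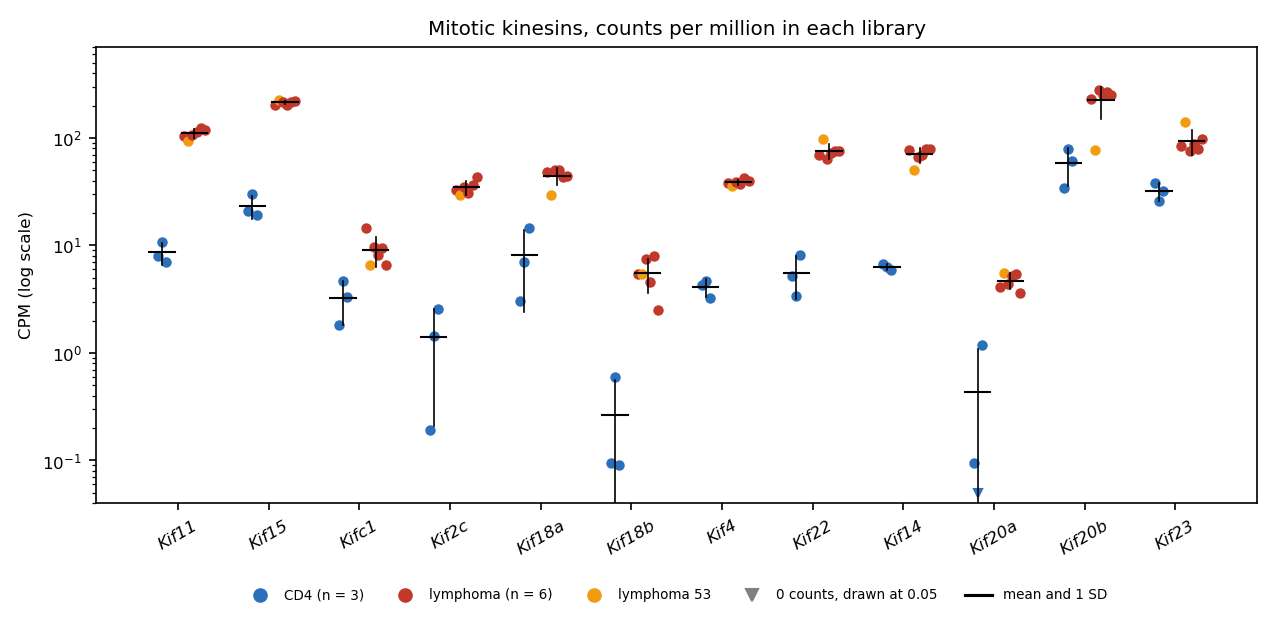
CPM on a log axis for the 12 mitotic kinesins, each point 1 library, with horizontal lines at the group mean and vertical lines for 1 SD (6 lymphomas, 3 CD4 libraries). Lymphomas lie above CD4 for all genes except Kif20b, where lymphoma 53 (77.3 CPM) falls below CD4 2 (79.4 CPM).

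The motors that hold the spindle poles apart come first. Kif11, the plus-end motor of the kinesin-5 family that slides antiparallel microtubules apart (ENSMUSG00000012443, chr19:37376403-37421859 in GRCm38, plus strand), had 93.4 CPM in the lowest lymphoma, a median of 110 and 123 in the highest, against 8.01, 10.8 and 6.97 CPM in CD4 1, 2 and 3. The groups were far apart, and the log2 fold change was 3.68 (SE 0.211, edgeR adjusted p 2.60e-07). Kif15, which can stand in for Kif11 in keeping the spindle bipolar (ENSMUSG00000036768, chr9:122951046-123018733, plus strand), had 202, 216 and 223 CPM as lowest, median and highest lymphoma and 21.1, 29.8 and 19.3 CPM in CD4 1 to 3. Its lymphomas were the least spread of all tested kinesins, with an SD of 4.04% of the mean, and its log2 fold change was 3.19 (SE 0.190, edgeR adjusted p 3.25e-07).

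Kifc1 encodes the minus-end motor of kinesin-14 that gathers microtubules at the poles and opposes Kif11 (ENSMUSG00000079553, chr17:33875659-33890661, minus strand). Its levels were 6.58, 8.79 and 14.4 CPM as lowest, median and highest lymphoma and 1.81, 4.68 and 3.3 CPM in CD4 1 to 3, without overlap. The log2 fold change was 1.49 (SE 0.417, edgeR adjusted p 0.0118), the smallest of the 12. Of the 12, Kifc1 also shares the most transcript sequence with other genes, which may make its count uncertain. Of the 50-base words over the whole length of its annotated transcripts, 38.6% also occur in transcripts of Kifc5b. The share within the sequenced 3′ ends was not computed. Reads that align to more than 1 place are counted outside the genes.

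Among the 12 mitotic kinesins, those that shorten microtubules rose as well. The kinesin-13 genes Kif2a and Kif24, grouped with the other kinesins, did not pass the test. Kif2c, a kinesin-13 that depolymerises microtubule ends at centromeres and so frees wrong attachments (ENSMUSG00000028678, chr4:117159639-117182639, minus strand), had 29.5, 33.9 and 43.3 CPM as lowest, median and highest lymphoma and 0.191, 1.44 and 2.57 CPM in CD4 1 to 3. CD4 2 and CD4 3 held most of the control reads, and the log2 fold change, 4.61 (SE 0.540, edgeR adjusted p 3.79e-05), was the largest of the 12. It was 5.47 without CD4 3. Kif18a, a kinesin-8 that dampens chromosome movements at the spindle equator (ENSMUSG00000027115, chr2:109280738-109341747, plus strand), had 29.6, 46.5 and 50.7 CPM in lymphoma and 3.05, 7.08 and 14.5 CPM in CD4 1 to 3, and its log2 fold change, 2.43 (SE 0.411, edgeR adjusted p 0.000526), became 3.15 without CD4 3.

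Kif18b, the second kinesin-8, restrains the microtubules that reach from the poles toward the cell edge (ENSMUSG00000051378, chr11:102905529-102925124, minus strand). It was scarce, with 2.53, 5.43 and 7.92 CPM as lowest, median and highest lymphoma and 1, 5 and 1 counts in CD4 1, 2 and 3. No lymphoma came down to the CD4 level, and the log2 fold change was 4.43 (SE 0.750, edgeR adjusted p 0.000520). Without CD4 2 the remaining controls lie under the floor of 3 counts per library, against which the lymphoma mean was at least 19.4-fold higher.

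Chromokinesins bind chromosome arms and push them toward the equator. Kif22 (ENSMUSG00000030677, chr7:127027729-127042471, minus strand) had 63.3, 74.0 and 97.9 CPM as lowest, median and highest lymphoma and 5.15, 3.36 and 8.07 CPM in CD4 1 to 3. It rose by 3.76 on the log2 scale (SE 0.293, edgeR adjusted p 1.82e-06), and its highest lymphoma was 53. Kif4, which also works with Prc1 to set the length of the central spindle (ENSMUSG00000034311, chrX:100625737-100727214, plus strand), had 35.5, 38.4 and 42.2 CPM and 4.29, 4.68 and 3.21 CPM in the same order, and rose by 3.25 on the log2 scale (SE 0.218, edgeR adjusted p 6.18e-07). Kif4 is X-linked, and the groups also differed in sex-linked transcripts: Xist stood at 4.66 to 11.3 CPM in lymphomas and 493.1 to 581.7 CPM in CD4, and the Y-linked gene Ddx3y at 119 to 178 and 0.191 to 0.734 CPM. Sex and group cannot be told apart. Kif4 overlaps Pdzd11 on the opposite strand over 832 bases, and the strand setting of the counting is not given in the sources used here.

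The kinesins of cytokinesis rose by different amounts. Kif14, a kinesin-3 that binds Prc1 and citron kinase at the midbody (ENSMUSG00000041498, chr1:136466343-136531511, plus strand), had 50.04, 73.4 and 78.7 CPM as lowest, median and highest lymphoma and 6.68, 6.24 and 5.87 CPM in CD4 1 to 3, and rose by 3.48 on the log2 scale (SE 0.217, edgeR adjusted p 4.03e-07). Kif23, the motor subunit of centralspindlin (ENSMUSG00000032254, chr9:61915905-61946774, minus strand), had 75.1, 85.6 and 140 CPM and 37.8, 25.8 and 32.1 CPM, and rose by only 1.56 (SE 0.236, edgeR adjusted p 0.000236). Its CD4 level was therefore not near 0, and the groups were still separate.

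Kif20a, which carries the Aurora B complex to the central spindle (ENSMUSG00000003779, chr18:34624613-34633277, plus strand), was scarce in these libraries. It had 3.61, 4.79 and 5.57 CPM as lowest, median and highest lymphoma and 1, 0 and 13 counts in CD4 1, 2 and 3, so that the control level rests on CD4 3. The log2 fold change was 3.38 (SE 0.880, edgeR adjusted p 0.00791). Without CD4 3 the lymphoma mean was at least 13.1-fold above the floor of 3 counts per library. The gene overlaps Cdc23 on the opposite strand over 2327 bases, and 25.2% of the 50-base words of its transcripts also occur there.

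Kif20b, a kinesin-6 needed late in cytokinesis (ENSMUSG00000024795, chr19:34922361-34975745, plus strand), had 228, 77.3, 280, 252, 265 and 248.6 CPM in lymphomas 34, 53, 56, 70, 72 and 86, and 34.3, 79.4 and 61.1 CPM in CD4 1 to 3. Lymphoma 53 lay among the controls and the other 5 lymphomas far above them. The log2 fold change was 1.95 (SE 0.400, edgeR adjusted p 0.00207), and it was 2.12 without lymphoma 53 (edgeR adjusted p 1.56e-05).

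Summed over the 12 genes, mitotic kinesins reached 925 ± 69.6 CPM in the 6 lymphomas and 152 ± 26.3 CPM in the 3 CD4 libraries (± SD). The sum over the other motor genes, to which Kif5b and Kif21b gave much of the counts, was 694 ± 53.1 and 1187 ± 93.8 CPM. Mitotic kinesins thus made up 57.1% ± 1.14 (range 56.04 to 58.5%) of all counts in the 41 motor gene rows in lymphoma and 11.3% ± 1.09 (range 10.2 to 12.4%) in CD4. Lymphoma 53 had the lowest summed level, at 794 CPM, and was the lowest lymphoma for 7 of the 12 genes and the highest for 4, yet its mitotic share was 56.9%. The spread within lymphoma was smaller for mitotic kinesins (median SD of 16.2% of the mean over 12 genes) than for the other tested kinesins (34.9% over 22), and 32.6% over all tested genes. Spread taken this way also depends on the count level. The sets were not matched for it, and several of the other kinesins had few counts. These sums and shares are descriptions of the same counts and were not tested.

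The other kinesins had no common direction. Of 34 rows, 22 passed the filter on low counts, of which 3 rose, 6 fell and 13 did not pass the test, with a median log2 fold change of -0.25. Called genes of either direction made up 46.6% of all tested genes, with 21.9% lower, so these counts lie near the background. The groups did not overlap for 9 of the 22 (2 above, 7 below), against 44.9% of all tested genes. The 3 that rose were Kif7, Kifc5b and Kif3a, and the 6 that fell were Kif5b, Kif5c, Kif3b, Kif21b, Kif9 and Kifc2.

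**Figure D3:**
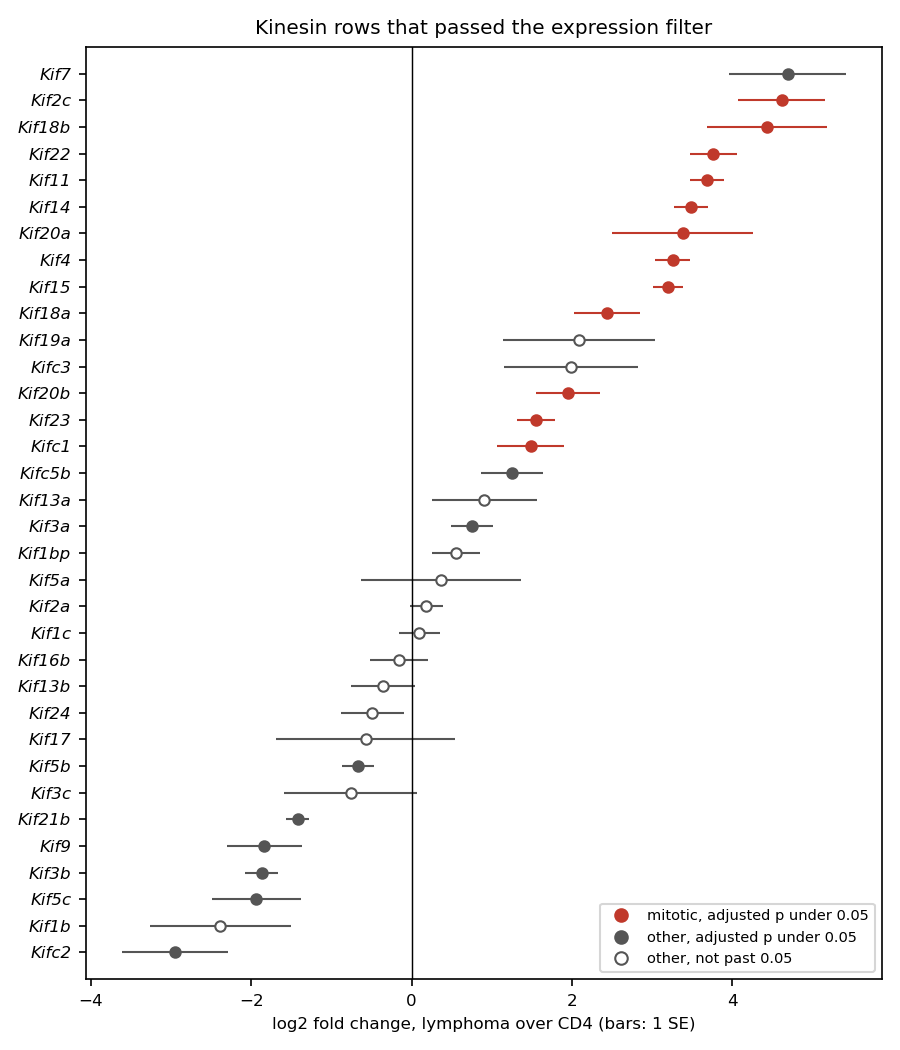
Log2 fold change (lymphoma over CD4) of the 34 kinesin rows that passed the expression filter, with bars of 1 SE and filled points for an adjusted p under 0.05. All 12 mitotic kinesins lie at 1.49 or above, and of the others only Kif7 (4.69) reaches beyond 3.

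Kinesin-1 is the general cargo motor, and its ubiquitous heavy chain is Kif5b. Kif5b (ENSMUSG00000006740, chr18:6201002-6242174, minus strand) had 157, 261 and 311 CPM as lowest, median and highest lymphoma and 330, 398 and 478 CPM in CD4 1 to 3, without overlap. It fell by 0.67 on the log2 scale (SE 0.201, edgeR adjusted p 0.0167), a call lost without CD4 2 (adjusted p 0.0526) and without CD4 3 (0.106). Kif5c, a heavy chain best known from neurons, fell by 1.93 (SE 0.554, edgeR adjusted p 0.0131) from 5.72, 4.08 and 2.75 CPM in CD4 1 to 3 to between 0.582 and 1.64 CPM in lymphomas, and this call was lost without CD4 1 (0.0663). The third heavy chain gene, Kif5a, had 0.578 to 2.37 CPM in lymphomas and 2.58, 0 and 0.367 CPM in CD4 1 to 3 (edgeR adjusted p 0.791).

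Kinesin-2 is a heterotrimer of Kif3a, Kif3b and the accessory subunit Kifap3, and its motor subunits moved in opposite directions. Kif3b (ENSMUSG00000027475, chr2:153291413-153333390, plus strand) had 26.6, 30.4 and 49.1 CPM as lowest, median and highest lymphoma and 117, 147 and 99.4 CPM in CD4 1 to 3. It was lower in all 6 lymphomas than in any control, by 3.65-fold (log2 fold change -1.87, SE 0.206, edgeR adjusted p 2.33e-05). Kif3a (ENSMUSG00000018395, chr11:53567379-53601967, plus strand) had 13.7, 21.1 and 29.7 CPM in lymphoma and 13.8, 11.3 and 12.9 CPM in CD4 1 to 3, and rose by 0.76 (SE 0.266, edgeR adjusted p 0.0350). Only lymphoma 53 overlapped the controls in Kif3a. This call was lost in 10 of 19 alternatives, among them each fit without 1 CD4 library (adjusted p 0.0563 to 0.112) and those without lymphoma 72 (0.0652) or lymphoma 86 (0.0570). Kifap3 had 19.4 ± 8.78 CPM (SD, n = 6) and 11.1 ± 3.11 CPM (SD, n = 3), with an edgeR adjusted p of 0.133. Kif3c and Kif17, the remaining kinesin-2 motors, stayed at or below 2.13 CPM in every library.

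Kif21b, a kinesin-4 that limits microtubule growth in T cells (ENSMUSG00000041642, chr1:136131389-136177998, plus strand), had 108, 122 and 133 CPM as lowest, median and highest lymphoma and 281, 360 and 328 CPM in CD4 1 to 3. The groups did not overlap, and the log2 fold change was -1.42 (SE 0.143, edgeR adjusted p 1.21e-05). Kif7, a kinesin-4 relative known as a regulator of Hedgehog signalling at the tip of the cilium (ENSMUSG00000050382, chr7:79698098-79715720, minus strand), went the other way, with 6.4, 8.73 and 10.1 CPM in lymphoma and 0, 6 and 3 counts in CD4 1, 2 and 3. Its log2 fold change, 4.69 (SE 0.726, edgeR adjusted p 0.000275), exceeded that of each mitotic kinesin. It was 5.83 without CD4 2. Kif7 overlaps the antisense gene 9330171B17Rik over 2075 bases, which share 16.1% of its transcripts' 50-base words. On the opposite strand it also overlaps the protein-coding gene Ticrr, over 51 bases. Whether reads of these neighbours entered the Kif7 counts was not tested.

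**Figure D4:**
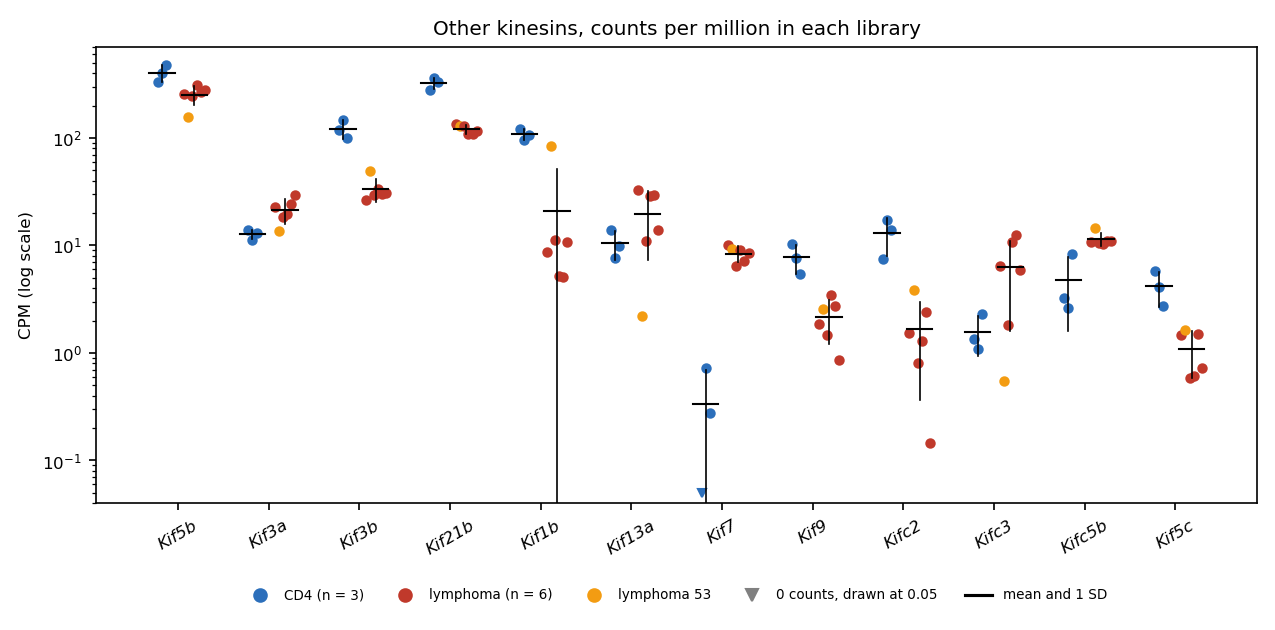
CPM on a log axis for 12 of the other kinesins, each point 1 library, with the group mean and 1 SD (6 lymphomas, 3 CD4 libraries). Lymphoma 53 lies apart for Kif1b (83.4 CPM, against 5.04 to 11.4 CPM in the other lymphomas) and is the lowest lymphoma for Kif13a and Kifc3.

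Kif1b, a kinesin-3 that carries mitochondria and vesicle precursors (ENSMUSG00000063077, chr4:149176319-149307693, minus strand), split the lymphomas. It had 8.77, 83.4, 11.4, 5.21, 5.04 and 10.7 CPM in lymphomas 34, 53, 56, 70, 72 and 86, and 120, 96.0 and 107 CPM in CD4 1 to 3. Each lymphoma lay below each control, as did 22.3% of tested genes, with lymphoma 53 close to the controls and the other 5 far lower. Over all libraries the log2 fold change was -2.38 (SE 0.876) and missed the threshold in edgeR (adjusted p 0.0513). Without lymphoma 53 it was -3.72 (SE 0.266, edgeR adjusted p 6.13e-07), and limma voom on all libraries gave -3.34 (adjusted p 0.000574).

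Kif13a, which moves recycling endosomes, and Kifc3, a minus-end motor linked to cell junctions, also differed between lymphomas. Kif13a had 32.6, 2.19, 10.9, 28.7, 29.5 and 14.01 CPM in lymphomas 34, 53, 56, 70, 72 and 86 and 13.9, 7.56 and 9.91 CPM in CD4 1 to 3. Kifc3 had 6.38, 0.548, 1.82, 10.7, 12.4 and 5.85 CPM and 1.34, 1.08 and 2.29 CPM in the same order. Lymphomas 34, 70 and 72 were the highest and lymphoma 53 the lowest for both genes. Neither passed the test over all libraries (edgeR adjusted p 0.281 for Kif13a and 0.0690 for Kifc3). Without lymphoma 53 the log2 fold changes were 1.14 (edgeR adjusted p 0.0264) and 2.22 (0.00869).

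Of the remaining kinesins that changed, Kif9, a motor of motile cilia and sperm tails, fell by 1.84 (SE 0.468, edgeR adjusted p 0.00697) from 10.2, 7.68 and 5.41 CPM in CD4 1 to 3 to between 0.866 and 3.49 CPM in lymphomas. Kifc2, a kinesin-14, fell by 2.95 (SE 0.658, edgeR adjusted p 0.00312) from 7.54, 17.3 and 13.9 CPM to between 0.144 and 3.84 CPM, the largest fall of any kinesin that passed the test. Both were separate between the groups. Kifc5b, the near copy of Kifc1 on the same chromosome, rose by 1.26 (SE 0.389, edgeR adjusted p 0.0196), with 10.4, 10.9 and 14.6 CPM as lowest, median and highest lymphoma and 3.24, 2.64 and 8.35 CPM in CD4 1 to 3. Its change was 1.96 without CD4 3, and its call was lost without CD4 1 (adjusted p 0.0740) and without CD4 2 (0.0791). As 36.6% of its transcripts' 50-base words occur in Kifc1, the counts of these genes may be uncertain. The promoter window of Kifc5b holds the CHR core at base 30 after the start site.

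No change passed the test for Kif2a, the kinesin-13 depolymerase related to Kif2c (148 ± 34.1 CPM over 6 lymphomas and 130 ± 2.32 CPM over 3 CD4 libraries, ± SD, edgeR adjusted p 0.4996), or for Kif1c, a vesicle motor (20.04 ± 3.598 and 18.7 ± 5.86 CPM, 0.784). The same held for Kif16b, which moves early endosomes (edgeR adjusted p 0.758), Kif13b (0.499), Kif24, a kinesin-13 of the centriole (0.343), Kif19a (0.0892) and Kif1bp (0.154). Kif3c, Kif17 and Kif5a did not pass either (0.483, 0.708 and 0.791). Kif19a overlapped between groups, at 1.42 to 6.93 CPM in lymphomas and 0.763, 1.92 and 0 CPM in CD4 1 to 3.

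The 12 rows that did not pass the filter held few reads. Kif12, Kif2b and the pseudogenes Kif4-ps, Kif22-ps and Kifc5c-ps had 0 counts in all 9 libraries. Kif1a, Kif6 and Kif26a had at most 3 counts in any library, and Kif16bos, Kif26b, Kif21a and Kif27 reached 5, 6, 18 and 23 counts in their highest library. For both Kif27 and Kif21a that library was CD4 1.

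Transcripts of most listed genes whose proteins work with the mitotic kinesins rose with them. Of 20 listed partners and spindle regulators, all were tested, 19 rose and 0 fell, with a median log2 fold change of 3.26, where higher calls made up 24.7% of all tested genes. Cenpe, the kinesin-7 of the kinetochore, whose symbol lies outside the Kif names, stood at 337 ± 48.6 CPM (SD) over 6 lymphomas and 43.8 ± 9.97 CPM over 3 CD4 libraries (log2 fold change 2.94, SE 0.217, edgeR adjusted p 1.32e-06). Racgap1, which forms centralspindlin with Kif23, rose by 3.05 (SE 0.302), Prc1, which bundles central spindle microtubules for Kif4 and Kif14, by 2.15 (SE 0.197), and Tpx2, which binds Kif11 and Kif15 at the spindle, by 3.47 (SE 0.236), with edgeR adjusted p of 1.08e-05, 6.21e-06 and 7.02e-07. The largest rise was that of the checkpoint kinase gene Bub1b (4.44, SE 0.218, edgeR adjusted p 1.34e-07). Numa1, which anchors dynein at spindle poles, was the exception, at 138 ± 21.2 and 188 ± 28.0 CPM (log2 fold change -0.44, edgeR adjusted p 0.0538). It was lower in every lymphoma than in every control. Under RLE or upper quartile scaling, under library size alone and with DESeq2, the list had 19 higher calls and 1 lower.

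**Figure D5:**
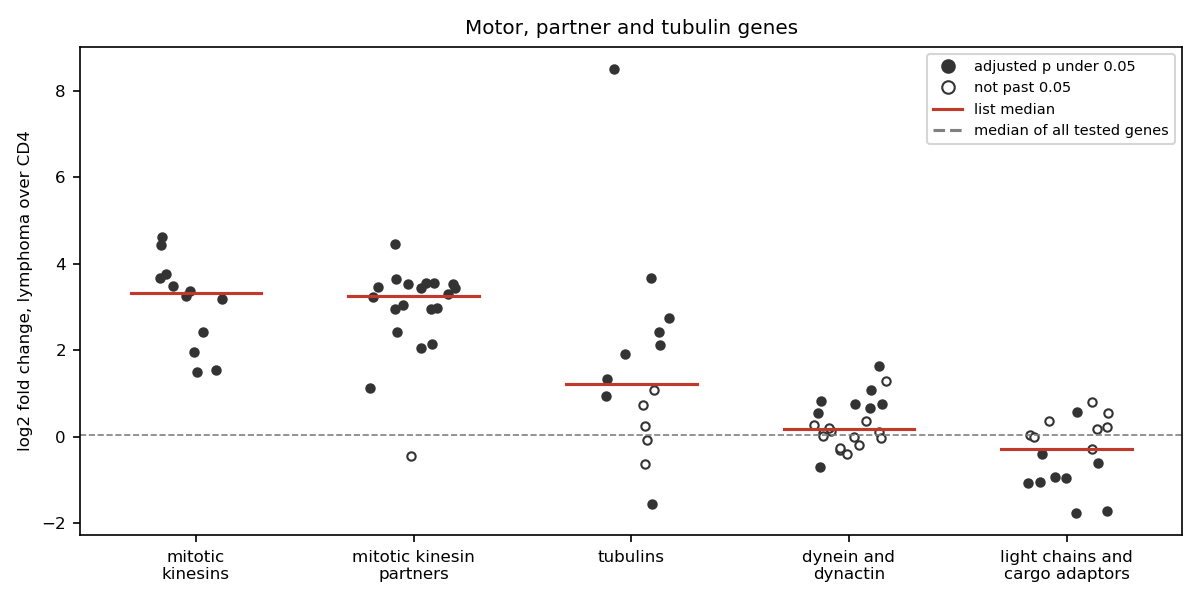
Log2 fold change (lymphoma over CD4) of tested genes in 5 lists, 1 point per gene, filled where the adjusted p was under 0.05, with the list median in red and the median of all tested genes (0.04) dashed. Mitotic kinesins and their partners lie together at medians of 3.32 and 3.26, and light chains and cargo adaptors at -0.29.

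Light chains and adaptors tie kinesins to cargo. Of 20 listed names, 19 were in the table, 17 were tested, 8 fell and 1 rose, with a median log2 fold change of -0.29 (Kif1bp is in this list too). Lower calls made up 21.9% of all tested genes. With no filter beyond 1 count the list's median was 0.03, with 5 genes lower and 1 higher of 19. Fez2, related to a kinesin-1 adaptor, fell most (log2 fold change -1.76, SE 0.251, edgeR adjusted p 0.000153), and Arl8b, a small GTPase that couples lysosomes to kinesin, was the gene that rose (0.56, SE 0.194, edgeR adjusted p 0.0314). The main light chain Klc1 stood at 101 ± 7.09 CPM (SD, n = 6) and 123 ± 22.7 CPM (SD, n = 3) and was not past the threshold (edgeR adjusted p 0.145). Without CD4 2 only 4 genes of the list were called.

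Cytoplasmic dynein and dynactin, the motor complex that travels opposite to most kinesins, had a median change near that of all tested genes. Of 24 listed genes 22 were tested, 7 rose and 1 fell, with a median log2 fold change of 0.17. Among all tested genes 24.7% were called higher and 46.6% in either direction, so these counts lie near or under the background. Nde1, a dynein regulator also needed in mitosis, rose most (1.64, SE 0.187, edgeR adjusted p 2.91e-05), and its paralogue Ndel1 fell (-0.70, SE 0.157, edgeR adjusted p 0.00326). Of 16 listed tubulin genes, which encode the track itself, 14 were tested, 8 rose and 1 fell, with a median of 1.21, against the same 24.7% higher and 21.9% lower among all tested genes. Tuba8 had the largest fitted rise, with 0 counts in each CD4 library and a mean of 3.50 ± 4.43 CPM (SD, n = 6) in lymphoma (edgeR adjusted p 0.0204). That mean rests mostly on lymphomas 70 and 72 (8.76 and 9.56 CPM). Lymphoma 34 had 1.81 CPM, and lymphomas 53, 56 and 86 had 0.274, 0.218 and 0.361 CPM. Tubb2a was the tubulin gene that fell (-1.56, SE 0.540, edgeR adjusted p 0.0331). The abundant Tubb5, named after its values were seen, stood at 1162 ± 187 and 267 ± 64.4 CPM (log2 fold change 2.12, SE 0.204, edgeR adjusted p 8.92e-06).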

How the data were processed

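Per the file headers, the authors deposited unnormalised read counts by Ensembl gene ID with symbols, for 6 lymphoma and 3 CD4 libraries. FastQC, HISAT2, SAMtools and HTSeq and the builds mm10 and GRCm38 are named in the submitters' processing notes. Their versions and the strand setting are not given in the sources used here. The 5 summary rows of reads assigned to no gene were left out of library sizes and tests, and 27.8 to 49.1% of all reads per library were in genes.

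Counts were tested with edgeR 4.0.16 (R 4.3.3): filterByExpr with a minimum count of 10 left 15401 genes, scaled by TMM and fitted by glmQLFit (robust) and glmQLFTest on all 9 libraries without covariates, with Benjamini-Hochberg adjustment over those genes and a threshold of 0.05. The SE was taken from the size of the log2 fold change over the root of its F statistic. Named genes were the 12 mitotic kinesins, all other tested kinesins, direct partners, and the largest rise and fall of each list. The members and lists were chosen with earlier results of these data known, and lists are described by counts and medians only. Alternatives were RLE, upper quartile or no scaling, 2 other filters, DESeq2 1.42.0, limma voom 3.58.1, 2 stricter thresholds, leaving out each library, and summing lymphomas 34, 70 and 72, since the labels do not say whether lymphomas arose independently. Gene positions and transcript words of 50 bases came from GENCODE M21 (GRCm38), matched by Ensembl ID for all 46 rows, and promoters from RefSeq (GRCm38.p6). The words covered whole transcripts, and sharing within the sequenced 3′ ends was not computed for any gene. Protein sequences were not used here. Floors (3 counts) cover counting error only.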

Additional observations from a re-analysis of the deposited data

Results flagged for a closer look

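Of 36 results examined over the 6 lymphomas, 10 had 1 library whose gap to its nearest neighbour exceeded 0.625 of the whole range, Dixon's 95% critical value for 6 samples. Chance flags about 1 in 20, or 1.8 here, and the genes are not independent. Lymphoma 53 was the library in 8 of the 10. It was high for Kif1b (83.4 CPM, the others 5.04 to 11.4), Kif23 (140 CPM, the others 75.1 to 97.5), Kif22 (97.9 CPM, the others 63.3 to 75.2), Kif3b (49.1 CPM, the others 26.6 to 33.4), Kif1c (26.8 CPM, the others 17.2 to 20.8) and Kifc5b (14.6 CPM, the others 10.4 to 11.1). It was low for Kif20b (77.3 CPM, the others 228 to 280) and Kif18a (29.6 CPM, the others 43.5 to 50.7). Among the mitotic kinesins it thus stood apart in both directions. The other 2 results were Kif17 in lymphoma 34 (2.13 CPM, the others 0.0654 to 0.509) and Kif1bp in lymphoma 86 (21.4 CPM, the others 13.2 to 14.6).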

How the results depend on the processing

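The 12 mitotic kinesins kept their direction in every alternative that tested them, and the single call lost was that of Kifc1 at an adjusted p under 0.01. With at least 10 counts in every library 9 of them could be tested, and all 9 were called. The other kinesins had 9 calls, 5 at an adjusted p under 0.01 and 7 to 12 when 1 library was left out. Light chains and adaptors had 9 calls, 4 at an adjusted p under 0.01, 4 at 2-fold, and 4 (without CD4 2) to 10 when 1 library was left out. Dynein and dynactin had 8 calls and 2 at 2-fold. Upper quartile scaling moved the median log2 fold change of all genes from 0.04 to -0.06, a shift of about 0.1.

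Over 34 kinesins and 19 alternatives, 589 of 629 outcomes stayed on their side of the threshold with the same sign, 20 were weaker, 13 stronger and 7 reversed, the reversals all in genes that did not pass the test. Kif1c was -0.0078 under upper quartile scaling and ran from -0.11 to 0.34 when 1 library was left out, Kif3c from -1.08 to 0.13, Kif16b from -0.36 to 0.16, and Kif5a from -0.19 to 2.68 (the last without CD4 1). Kif19a was 3.28 without CD4 2 and 1.5 without CD4 3. Kif1b passed the threshold in 6 alternatives. The cause was not tested. No paired analysis was possible because the groups share no replicate numbers. Kif18b, Kif20a and Kif7, with few CD4 counts, are limited by depth.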
